A study of Mus musculus with 21 samples.

Results

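The cecum of mice fed 2.5% broccoli powder was compared with the cecum of mice fed 0.5% broccoli powder, the highest and the lowest amount of powder given. Libraries were chosen by the treatment in their labels, which put 5 mice at 2.5% and 5 mice at 0.5%, together 10 of the 21 libraries of the series. All mice of both groups were C57BL/6, an inbred strain, and entered the study at 3 weeks of age. Both groups ate a Total Western Diet, a rodent diet modelled on human Western intake, for 6 weeks, and then the same diet with their dose of powder for 3 weeks. Both groups therefore ate broccoli, and the contrast holds no mouse without it. Messenger RNA of whole cecum tissue was sequenced, so fewer cells of a type and less RNA per cell cannot be told apart.

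The cecum is a blind pouch between small and large bowel, where microbes ferment plant material. Broccoli carries glucosinolates, which are broken down to isothiocyanates and indoles. Indole products can bind the aryl hydrocarbon receptor (AhR), which switches on Cyp1a1 and its own repressor Ahrr, and isothiocyanates can release NRF2, a factor that switches on antioxidant and glutathione genes.

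Library totals lay between 33132637 and 39675518 counts at 2.5% and between 35057688 and 50757142 counts at 0.5%. The mean total was 36611930 ± 2670000 at 2.5% and 43194606 ± 6600000 at 0.5% (SD, n = 5 each; exact two-sided permutation test, p = 0.0794, where the 252 divisions of 10 libraries can give no p below 0.00794). Mitochondrially encoded genes took 26.5 ± 2.74% of counts at 2.5% and 28.4 ± 2.51% at 0.5% (SD, n = 5 each; exact two-sided permutation p = 0.278). The tissue label was checked with colonic epithelium genes, whose mean log2 CPM (counts scaled to a common library size) was 9.06 to 9.19 at 2.5% and 9.02 to 9.16 at 0.5%. High levels of genes of the small intestine, the neighbouring gut segment, set 4 libraries apart, which were 2.5% replicates 1 and 2 and 0.5% replicates 1 and 4. Fabp6, the bile acid binding protein of the ileum, was, in order of replicate, at 11.8, 14, 0.709, 0.467 and 0.271 CPM at 2.5% and at 9.43, 0.122, 1.01, 19.8 and 0.159 CPM at 0.5%, and values per mouse keep this order throughout. The Paneth cell gene Defa24 had no count in 2.5% replicates 3, 4 and 5 or in 0.5% replicates 2 and 5. Each dose thus had 2 libraries of high and 3 of low small intestine signal, and results are given with all 10 libraries and, where it matters, with the 3 against 3 low libraries.

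No gene passed the test between the doses. Of 15652 genes tested with edgeR's quasi-likelihood test and Benjamini-Hochberg adjustment, 0 had an adjusted p under 0.05 in either direction (0% called), and the lowest adjusted p was 0.168. At an unadjusted p under 0.05 there were 691 genes (4.41%), of which 376 were higher at 2.5% (2.4% of genes tested) and 315 were lower (2.01%). Evenly spread p values would put 783 genes under that level. The limma voom test also called 0 genes. DESeq2 called 18 genes, of which 17 were higher (0.111% of the 15309 genes it gave an adjusted p) and 1 was lower (0.00653%). Of those called higher, Gm19410 had the lowest DESeq2 adjusted p (0.000632), then Hist1h1e (0.00504) and Cyp2c23 (0.00962). Next were Calcb, Dusp14 and Hephl1 (0.012 each), Ly6g6c and Stx11 (0.0126 each), Cxcl16 (0.0162), Rasgef1b (0.0177), Slc30a10 (0.0224) and Adprm (0.029). Ceacam16, Fhdc1, Mdm2, Pxt1 and Xkr9 followed at 0.0499. The median log2 change over all genes tested was 0.00076, and 50.3% of genes had a positive change. In 43 genes all 2.5% libraries lay above all 0.5% libraries (0.275% of genes tested), and in 70 genes all lay below (0.447%). Both directions together made 0.722% of genes, while a random division of 10 libraries separates a gene fully with a probability of 0.00794. The number of genes without overlap was thus not above what random division gives. The 43 higher genes had a median log2 change of 0.44, with 10 above 1, while the 70 lower genes had a median of -0.24, with 3 below -1. This split depended on the scaling, which was TMM in the values above. With library totals in its place, 61 genes lay above and 29 below without overlap, and 482 genes were higher against 143 lower at an unadjusted p under 0.05. Higher genes made up 77.1% of the unadjusted set with library totals and 54.4% with TMM, while the median log2 change of all genes was 0.033 with library totals.

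**Figure D1:**
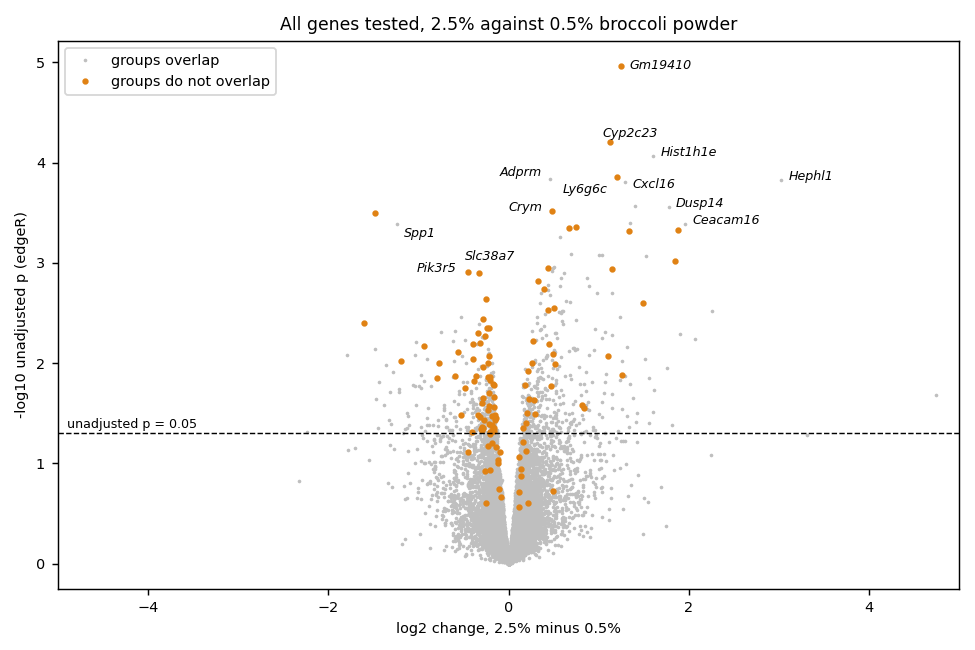
Each point is 1 of 15652 genes, with the log2 change between 2.5% and 0.5% broccoli powder on the x axis and -log10 of edgeR's unadjusted p on the y axis. Orange points are the 113 genes whose 5 libraries at 2.5% do not overlap the 5 at 0.5%, most of which have small changes, and the dashed line marks an unadjusted p of 0.05.

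A first set of genes was higher in every mouse on 2.5%. Cyp2c23, a cytochrome P450 that turns arachidonic acid into epoxides, was at 2.40, 1.97, 2.48, 3.12 and 2.58 CPM at 2.5% and at 0.620, 0.907, 1.55, 1.33 and 1.31 CPM at 0.5%. All 5 mice on 2.5% lay above all 5 on 0.5%, including the libraries of high small intestine signal. Its log2 difference was 1.12 (SE 0.233, edgeR adjusted p = 0.354, DESeq2 adjusted p = 0.00962), and it was 1.11 in the 3 against 3 libraries (edgeR adjusted p = 0.115). The gene lies at chr19:44005022-44029208 on the minus strand of GRCm38, and all coordinates of genes are given in that build.

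Crym, which encodes the thyroid hormone binding protein mu-crystallin, was at 21.6, 22.9, 29.8, 25.9 and 28.5 CPM at 2.5% and at 20.03, 20.1, 16.6, 17.3 and 18.4 CPM at 0.5%. The groups did not overlap, with the highest mouse on 0.5% close below the lowest on 2.5%. Its log2 difference was 0.48 (SE 0.114, edgeR adjusted p = 0.415). Pax8, a paired box transcription factor best known from thyroid and kidney, was at 11.7, 12.97, 14.7, 15.5 and 12.8 CPM at 2.5% and at 10.3, 8.94, 9.60, 11.2 and 9.85 CPM at 0.5%. Every mouse on 2.5% was again above every mouse on 0.5%, with a log2 difference of 0.44 (SE 0.12, edgeR adjusted p = 0.618). Slc30a10, a transporter that moves manganese out of cells, was at 179, 163, 278, 179 and 176 CPM at 2.5% and at 108, 119.5, 127, 108 and 148 CPM at 0.5%. Its groups did not overlap, 2.5% replicate 3 was the highest, and its log2 difference was 0.67 (SE 0.162, edgeR adjusted p = 0.415, DESeq2 adjusted p = 0.0224). Atp2b1, a calcium pump of the plasma membrane, was at 583 to 750 CPM at 2.5% and at 476 to 544 CPM at 0.5%, with a log2 difference of 0.33 (SE 0.093, edgeR adjusted p = 0.683).

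Ly6g6c (chr17:35065388-35070050, plus strand), a lipid-anchored surface protein of the Ly6 family, was at 16.9, 22.5, 40.01, 34.6 and 34.1 CPM at 2.5% and at 15.8, 10.3, 16.8, 10.9 and 10.5 CPM at 0.5%. The groups touched without overlapping, since 2.5% replicate 1 was only just above 0.5% replicate 3. The log2 difference was 1.21 (SE 0.255, edgeR adjusted p = 0.354). It overlaps Mpig6b on the other strand, and it is not known here whether counting used strand. Rasgef1b, an exchange factor for Ras family proteins, was at 46.7, 49.5, 94.4, 95.5 and 73.2 CPM at 2.5% and at 43.99, 37.7, 44.3, 46.6 and 41.9 CPM at 0.5%. It too did not overlap, but 2.5% replicates 1 and 2 were close to the mice on 0.5% and replicates 3, 4 and 5 were well above. Its log2 difference was 0.75 (SE 0.178, edgeR adjusted p = 0.415), and its annotation overlaps several other genes on both strands. Also without overlap, and named after their values were seen, were the predicted gene Gm19410 (log2 difference 1.24, SE 0.226, edgeR's lowest adjusted p of 0.168), Pxt1 of peroxisomes (1.88, SE 0.466), the membrane protein Ermap (1.33, SE 0.33) and the lipid scramblase Xkr9 (1.14, SE 0.304). Gm19410 was at 2.55 to 4.15 CPM at 2.5% and at 0.755 to 1.76 CPM at 0.5%, and its DESeq2 adjusted p was 0.000632.

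A second set was high in 2.5% replicates 3, 4 and 5 and near the 0.5% level in replicates 1 and 2. Hephl1 (chr9:15051841-15112108, minus strand), a copper-dependent ferroxidase, was at 0.674, 0.782, 7.01, 4.43 and 4.53 CPM at 2.5% and at 0.465, 0.123, 0.754, 0.326 and 0.457 CPM at 0.5%. The groups overlapped in 2.5% replicate 1 and 0.5% replicate 3, and the log2 difference was 3.03 (SE 0.65, edgeR adjusted p = 0.354). Dusp14 (chr11:84048041-84069261, minus strand), a phosphatase acting on MAP kinases, was at 1.46, 0.984, 7.34, 6.94 and 6.02 CPM at 2.5% and at 0.744, 1.30, 1.60, 1.95 and 1.03 CPM at 0.5%. For Dusp14 replicates 1 and 2 lay within the range of 0.5%, and the log2 difference was 1.77 (SE 0.41, edgeR adjusted p = 0.415). Stx11, a syntaxin of membrane fusion, was at 2.40, 3.76, 13.2, 10.03 and 13.5 CPM at 2.5% and at 3.01, 3.72, 3.15, 3.28 and 3.64 CPM at 0.5%. The lowest of all 10 mice for Stx11 was 2.5% replicate 1, and the log2 difference was 1.35 (SE 0.322, edgeR adjusted p = 0.415).

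Cxcl16 (chr11:70453983-70459984, minus strand), a membrane-bound chemokine that binds CXCR6, was at 7.64, 9.93, 22.0, 26.3 and 27.3 CPM at 2.5% and at 6.95, 11.5, 5.87, 6.87 and 6.83 CPM at 0.5%. The groups overlapped through 0.5% replicate 2, and the log2 difference was 1.29 (SE 0.279, edgeR adjusted p = 0.354). Calcb, which encodes a calcitonin gene-related peptide of nerves, was at 3.49, 2.20, 8.10, 7.76 and 14.2 CPM at 2.5% and at 2.57, 2.45, 2.86, 3.28 and 2.36 CPM at 0.5%. Replicate 5 was highest and replicate 2 was below every mouse on 0.5%, with a log2 difference of 1.41 (SE 0.324, edgeR adjusted p = 0.415). The linker histone gene Hist1h1e was at 2.67, 2.69, 11.2, 8.17 and 6.97 CPM at 2.5% and at 1.92, 1.52, 2.90, 1.63 and 2.44 CPM at 0.5% (log2 difference 1.60, SE 0.335, edgeR adjusted p = 0.354). Its annotation overlaps that of Hist1h2be on the same strand, so their counts are uncertain. Ceacam16, an adhesion protein best known from the inner ear, had a log2 difference of 1.96 (SE 0.479, edgeR adjusted p = 0.415), with at least 2.28 CPM in 2.5% replicates 3, 4 and 5 and at most 0.744 CPM in the other 7 libraries. Adprm, a phosphatase of ADP-ribose, differed less, with 48.8, 46.7, 62.1, 72.8 and 57.4 CPM at 2.5% and 40, 36.5, 49.8, 38.4 and 44.8 CPM at 0.5% (log2 difference 0.46, SE 0.102, edgeR adjusted p = 0.354). In 16 of the 17 genes that DESeq2 called higher, the 3 highest of the 10 libraries were 2.5% replicates 3, 4 and 5. Those genes were picked with these same libraries, and the share over all genes was not counted.

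**Figure D2:**
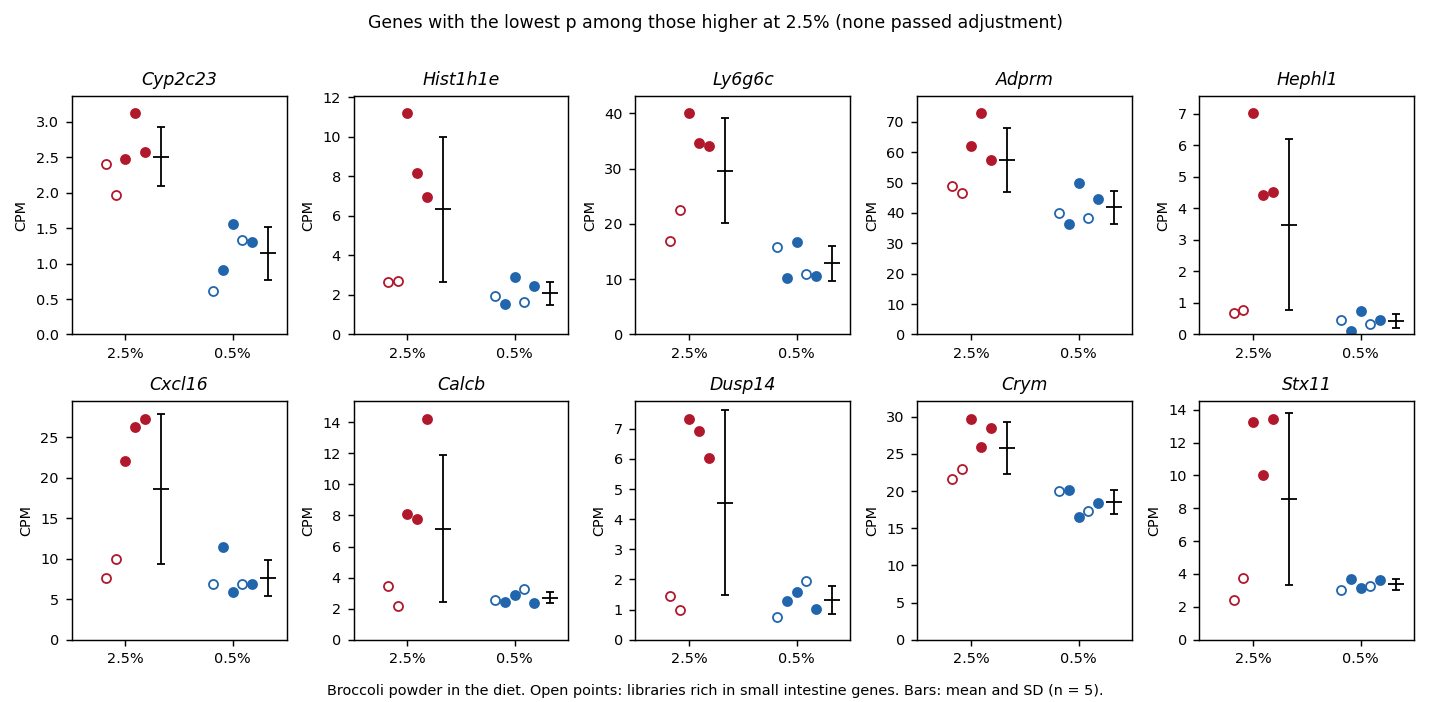
CPM (y axis) of the 10 genes with the lowest p among those higher at 2.5%, predicted genes such as Gm19410 and genes under 1 CPM in both groups left out, one point per mouse, with 2.5% in red on the left, 0.5% in blue on the right, and the mean and SD (n = 5) as bars. Filled red points, the libraries poor in small intestine genes, are 2.5% replicates 3 to 5, and in Hist1h1e, Hephl1, Calcb, Dusp14 and Stx11 only these stand well above the blue points, while Cyp2c23 and Crym are separated in all 5 mice.

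Among genes lower at 2.5%, Pik3r5, a regulatory subunit of the phosphoinositide 3-kinase gamma, was at 4.57, 4.28, 4.05, 5.02 and 4.77 CPM at 2.5% and at 5.95, 6.91, 5.90, 6.19 and 6.16 CPM at 0.5%. The groups did not overlap, and the log2 difference was -0.46 (SE 0.125, edgeR adjusted p = 0.618). Slc38a7, a glutamine transporter of lysosomes, was at 10.5, 11.8, 10.8, 12.3 and 12.5 CPM at 2.5% and at 14.4, 14.5, 14.1, 15.5 and 14.1 CPM at 0.5%. It was below in every mouse on 2.5% as well, with a log2 difference of -0.32 (SE 0.089, edgeR adjusted p = 0.618). Aig1, a hydrolase of fatty acid esters, was at 62.6 to 69.7 CPM at 2.5% and at 74.2 to 82.3 CPM at 0.5%, without overlap, and its log2 difference was -0.25 (SE 0.073, edgeR adjusted p = 0.798). Rtraf, Osbpl10 and Edem2 also had no overlap, with log2 differences of -0.28 (SE 0.087), -0.24 (SE 0.075) and -0.22 (SE 0.07). Rtraf encodes an RNA-binding factor, Osbpl10 an oxysterol-binding protein, and Edem2 takes part in clearing misfolded proteins from the endoplasmic reticulum.

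Msl3, a subunit of a histone acetyltransferase complex, was at 15.5 to 17.2 CPM at 2.5%, while 0.5% replicates 1 to 5 had 31.3, 16.2, 35.1, 16.8 and 19.4 CPM. The spread in Msl3 was within the mice on 0.5%, of which replicates 1 and 3 were highest. Ikbke, a kinase of innate immune signalling, was at 27.4 to 34.7 CPM at 2.5% and at 34.1 to 47.2 CPM at 0.5%, and the potassium channel gene Kcnh1 was at 2.63 to 4.16 CPM at 2.5% and at 3.52 to 7.44 CPM at 0.5%. Both overlapped by their nearest mice. Cyp2d34, a cytochrome P450 with close copies in the genome so that its counts are uncertain, was at 112, 97.5, 53.2, 63.3 and 57.2 CPM at 2.5% and at 117, 164, 78.6, 127 and 159 CPM at 0.5% (log2 difference -0.75, SE 0.235, edgeR adjusted p = 0.978). The low values were 2.5% replicates 3 to 5. Among genes picked out after their values were seen, Hoxb5 and Hoxb8, which mark position along the gut, had log2 differences of -0.23 (SE 0.083) and -0.21 (SE 0.102), and Tcf7l2, the transcription factor of Wnt signalling, had -0.16 (SE 0.078). All of these had edgeR adjusted p values of 1 and no overlap between the groups. The single gene that DESeq2 called lower was the predicted gene Gm44215, at 0.434 to 1.05 CPM at 2.5% and at 1.33 to 2.74 CPM at 0.5% (log2 difference -1.48, SE 0.353, edgeR adjusted p = 0.415, DESeq2 adjusted p = 0.0327).

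**Figure D3:**
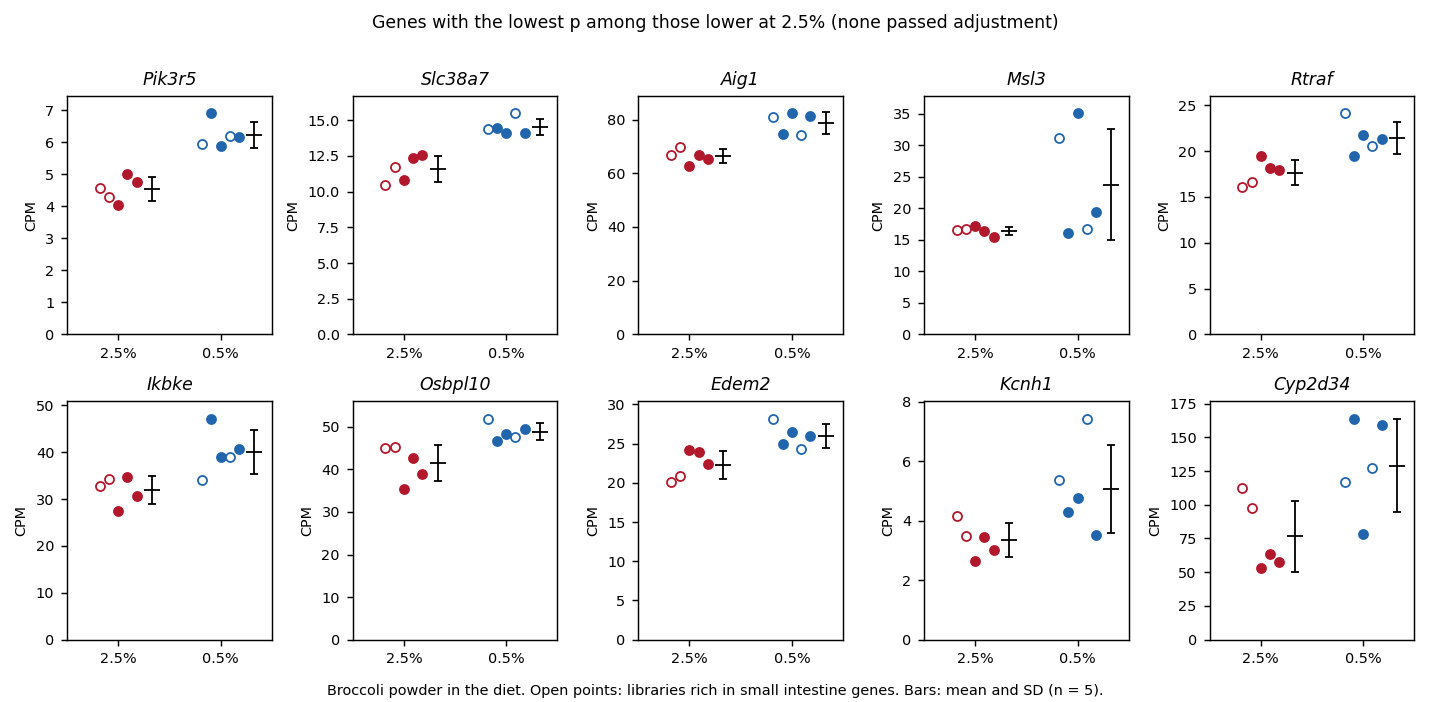
CPM (y axis) of the 10 genes with the lowest p among those lower at 2.5%, predicted genes such as Gm44215 and genes under 1 CPM in both groups, such as Spp1, left out, one point per mouse, with 2.5% in red on the left, 0.5% in blue on the right, and the mean and SD (n = 5) as bars. Pik3r5, Slc38a7, Aig1, Rtraf, Osbpl10 and Edem2 are separated without overlap, and in Msl3 the spread lies within the mice on 0.5%.

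Without the libraries rich in small intestine genes, genes were called. With 3 mice on 2.5% against 3 on 0.5%, edgeR called 44 of 15734 genes higher at 2.5% (0.28%) and 0 lower (0%). Of the 15734 genes, 1226 had an unadjusted p under 0.05 in either direction, beside 691 of 15652 with all 10 libraries. The lowest adjusted p of a lower gene was 0.0524. The called genes included Dusp14 (log2 difference 2.37, SE 0.227, adjusted p = 2.97e-05), Ppp1r15a (1.43, SE 0.158, adjusted p = 0.000158), Stx11 (adjusted p = 0.00019), Cxcl16 (adjusted p = 0.000241), Mdm2 (adjusted p = 0.000577) and Rasgef1b (adjusted p = 0.000656). Mdm2, the ubiquitin ligase that limits p53, was at 83.4, 89.6, 137, 157 and 159 CPM at 2.5% and at 83.0, 80.2, 88.9, 77.4 and 93.4 CPM at 0.5%. Rnf24, a RING finger protein, was at 41.96, 49.4, 102, 129 and 115 CPM at 2.5% and at 50.5, 51.0, 46.8, 40.8 and 46.1 CPM at 0.5%. In both genes 2.5% replicates 3 to 5 were above all 7 other mice, and replicates 1 and 2 lay within the range of 0.5%. In 43 of the 44 genes 2.5% replicates 3, 4 and 5 all lay above 2.5% replicates 1 and 2. Replicates 3, 4 and 5 were the only 2.5% mice in the fit that called these genes higher, so the calls favoured genes high in them. The same share over all genes was not counted. Among the 44, Gm19410, Ly6g6c, Rasgef1b and Xkr9 had no overlap over all 10 libraries, and 14 were also among the 18 that DESeq2 called with all libraries. The count was thus 0 with all 10 libraries and 44 with 3 against 3.

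The libraries left out of that fit were measured separately for the same 44 genes. In them, 2 mice on 2.5% against 2 on 0.5%, the median difference in mean log2 CPM was -0.00419, against 1.06 in the 3 against 3 libraries used for the call. There were 22 positive and 22 negative differences among the 44, between -0.50 and 0.82. Both mice on 2.5% lay above both on 0.5% in 10 of the 44 genes (22.7%), compared with 15.9% of all 15652 genes, whose median difference in these libraries was -0.00173. Hephl1, Gm19410, Hist1h1e and Ly6g6c were among the most positive in the libraries left out, and Pbp2 and Ttc16 were the most negative. The 44 genes were chosen with the 3 against 3 libraries, so only the values in the libraries left out are independent of that choice.

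**Figure D4:**
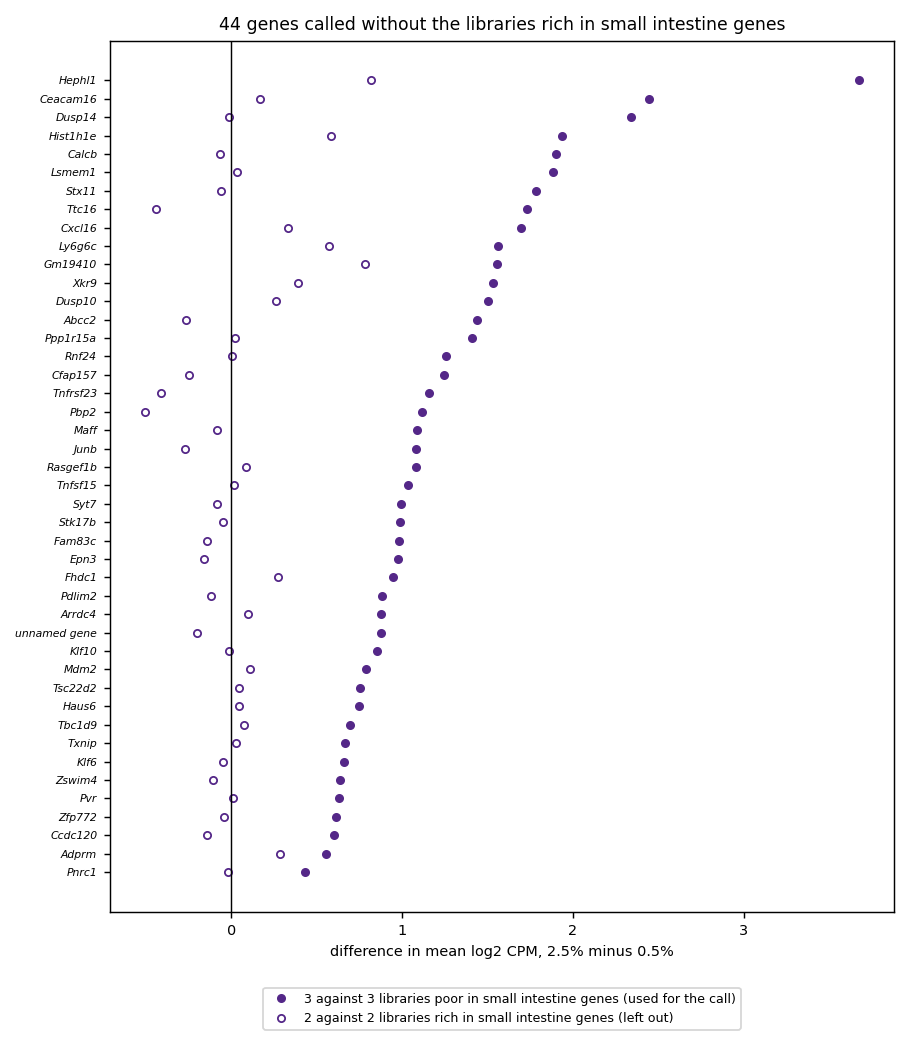
Difference in mean log2 CPM, 2.5% minus 0.5% (x axis), for each of the 44 genes called without the libraries rich in small intestine genes (rows). Filled points are the 3 against 3 libraries that made the call and open points the 2 against 2 left out, which lie on both sides of 0 between -0.50 and 0.82.

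Among AhR targets, 8 of 9 tested members had a positive difference, with a median log2 change of 0.25. Cyp1a1 was the 1 higher member at an unadjusted p under 0.05, beside 2.4% of all genes. No member passed the adjusted test. For Ahrr, which holds AhR back, and Cyp1a1, an oxidase that AhR switches on, the 150 bases before the transcription start are printed here from RefSeq (GRCm38.p6), because both carry the core of the AhR binding element, GCGTG on either strand, in capitals. The windows are chr13:74292332-74292481 on the minus strand for Ahrr and chr9:57697463-57697612 on the plus strand for Cyp1a1.
Ahrr: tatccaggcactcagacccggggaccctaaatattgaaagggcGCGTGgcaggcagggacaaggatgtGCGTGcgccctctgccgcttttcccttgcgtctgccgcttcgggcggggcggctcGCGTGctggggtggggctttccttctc
Cyp1a1: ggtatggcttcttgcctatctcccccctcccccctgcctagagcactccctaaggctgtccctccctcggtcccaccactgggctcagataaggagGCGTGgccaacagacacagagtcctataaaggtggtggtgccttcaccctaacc
The matches began 107, 82 and 27 bases before the start of Ahrr and 54 bases before that of Cyp1a1. This core is common, with a match in 32.4% of 32851 RefSeq promoter windows. Of the 18 genes searched that had a window, 11 held it, Atf3, Dusp14 and Stx11 among them. A match is thus a description and not a binding site.

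Cyp1a1 was at 6.36, 1.74, 1.80, 4.38 and 0.705 CPM at 2.5% and at 1.43, 0.735, 1.23, 0.626 and 0.874 CPM at 0.5%. All but 1 of the mice on 2.5% were above all on 0.5% and replicate 5 lay within their range, with a log2 difference of 1.61 (SE 0.627, edgeR adjusted p = 1, unadjusted p = 0.0185). Ahrr was at 5.86, 4.23, 4.08, 4.93 and 3.01 CPM at 2.5% and at 4.28, 3.26, 3.25, 3.43 and 2.34 CPM at 0.5% (log2 difference 0.42, SE 0.205, edgeR adjusted p = 1). Among the mice on 2.5%, replicate 1 was the highest and replicate 5 the lowest for both genes. Tiparp, an ADP-ribosyltransferase that limits AhR, had a log2 difference of 0.25 (SE 0.127) and Cyp1b1 one of 0.80 (SE 0.639), while the receptor gene Ahr had -0.10. The mean log2 CPM of the AhR list was 3.79 ± 0.262 at 2.5% and 3.44 ± 0.122 at 0.5% (SD, n = 5 each).

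NRF2 and glutathione genes were split evenly, with 17 of 34 tested members positive, a median log2 change of -0.0062 and 0 members at an unadjusted p under 0.05 in either direction. In the 3 against 3 libraries 24 of 34 were positive with a median of 0.089, and 1 member was called, Abcc2, an export pump for glutathione conjugates (log2 difference 1.53, SE 0.302, edgeR adjusted p = 0.0281). That fit called 0.28% of all genes higher. Nqo1, a quinone reductase under both AhR and NRF2, was at 52.8, 58.0, 78.8, 72.9 and 68.7 CPM at 2.5% and at 62.0, 65.2, 52.5, 61.1 and 64.9 CPM at 0.5%. Replicates 3 to 5 at 2.5% were the highest 3 mice and replicate 1 was among the lowest, with a log2 difference of 0.12 (SE 0.113, edgeR adjusted p = 1). Gclc, the catalytic subunit of glutathione synthesis, and Hmox1, the haem-degrading oxygenase, had log2 differences of -0.19 (SE 0.096) and -0.28 (SE 0.199). Of 34 tested xenobiotic enzymes and transporters, 14 were positive, with a median of -0.011. At an unadjusted p under 0.05 stood Cyp2c23 as higher, and Cyp2d34 and Cyp2d26 as lower, beside 2.4% and 2.01% of all genes.

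Immediate early and acute stress genes, which cells switch on within minutes of a stimulus, were positive in 28 of 37 tested members, with a median log2 change of 0.24. At an unadjusted p under 0.05 there were 9 higher and 0 lower members, beside 2.4% and 2.01% of all genes. With all libraries 0 passed edgeR's adjusted test, while DESeq2 called Dusp14 (adjusted p = 0.012). Without the libraries rich in small intestine genes, the median was 0.56 and 5 members were called by edgeR: Dusp14, Ppp1r15a, Junb, Klf6 and Maff. Of all genes in that fit, 0.28% were called higher. Ppp1r15a helps to restart protein synthesis after stress, and its promoter is shown because it holds the full cAMP response element TGACGTCA, in capitals, which 1.79% of RefSeq windows hold on either strand. The window is chr7:45526269-45526418 on the minus strand of GRCm38.p6, and the match began 12 bases before the start.
Ppp1r15a: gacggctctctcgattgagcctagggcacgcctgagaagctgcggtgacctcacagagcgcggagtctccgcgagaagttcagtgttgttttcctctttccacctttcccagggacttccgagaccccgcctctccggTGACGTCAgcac
Among the 18 genes searched that had a window, Arl4d also held this element, and none held the AP-1 element TGACTCA, which 5.2% of all windows held. TGACNNNGC, the core of the antioxidant response element, was found in 3 of the 18, beside 12.4% of all windows.

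Ppp1r15a was at 16.8, 19.1, 45.96, 62.7 and 46.8 CPM at 2.5% and at 19.3, 18.3, 20.1, 16.04 and 19.5 CPM at 0.5%. Replicates 3 to 5 stood apart from all 7 other mice, and with all libraries the log2 difference was 1.04 (SE 0.262, edgeR adjusted p = 0.577). Its annotation overlaps Tulp2 on the other strand. Atf3, a stress-induced transcription factor, was at 28.5, 27.6, 114, 200.2 and 107 CPM at 2.5% and at 35.0, 21.3, 45.2, 37.5 and 48.0 CPM at 0.5% (log2 difference 1.35, SE 0.506, edgeR adjusted p = 1). Fosb, a partner of Jun in the AP-1 complex, was at 9.23, 5.24, 20.8, 28.6 and 32.6 CPM at 2.5% and at 10.3, 4.97, 4.30, 7.99 and 9.43 CPM at 0.5%. Both had the same 3 mice on top, and so had Fos, at 189, 328, 391, 453 and 384 CPM at 2.5% and at 280.0, 152, 342, 349 and 146 CPM at 0.5%, though for Fos the highest mice on 0.5% were close below. The list's mean log2 CPM was 4.82, 4.93, 5.47, 5.70 and 5.67 at 2.5% and 5.11, 4.77, 5.25, 5.12 and 4.93 at 0.5%.

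Genes of other cell types also differed between these mice. The mean log2 CPM of the small intestine list was 3.96, 3.70, 2.30, 2.39 and 2.15 at 2.5% and 3.81, 2.29, 2.69, 4.13 and 2.25 at 0.5%. Smooth muscle genes were at 8.38, 7.84, 7.57, 7.13 and 7.88 at 2.5% and at 8.01, 7.84, 7.53, 8.03 and 8.04 at 0.5%, and fat genes at 4.35, 4.44, 3.91, 3.39 and 2.96 at 2.5% and at 3.77, 2.89, 4.99, 4.33 and 4.60 at 0.5%. So 2.5% replicates 3 to 5 were low in small intestine and fat genes within their own group. With small intestine or smooth muscle level as a covariate edgeR also called 0 genes, and the part of fat in these differences was not tested. As whole lists, small intestine genes were positive in 6 of 22 tested members (median log2 change -0.089), Paneth cell genes in 1 of 5 (-0.59), smooth muscle genes in 6 of 13 (-0.047) and fat genes in 5 of 14 (-0.42). Blood cell genes were positive in 1 of 5 members (-0.45), collagen and fibroblast genes in 5 of 18 (-0.075), blood vessel genes in 2 of 11 (-0.10) and mitochondrially encoded genes in 1 of 13 (-0.13). Genes of enteric neurons and glia were positive in 15 of 18 members (0.10), with Calcb as the 1 member at an unadjusted p under 0.05. In the 3 against 3 libraries 8 of 18 were positive, while edgeR called Calcb higher (log2 difference 1.97, SE 0.263, adjusted p = 0.000727). That fit called 0.28% of all genes higher. No member of these lists passed edgeR's adjusted test with all 10 libraries, while DESeq2 called Calcb (adjusted p = 0.012). In the same 3 against 3 libraries the median log2 change was -1.0 for fat genes, -0.35 for collagen and fibroblast genes, -0.29 for smooth muscle genes and -0.27 for the 3 Paneth cell genes tested there.

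**Figure D5:**
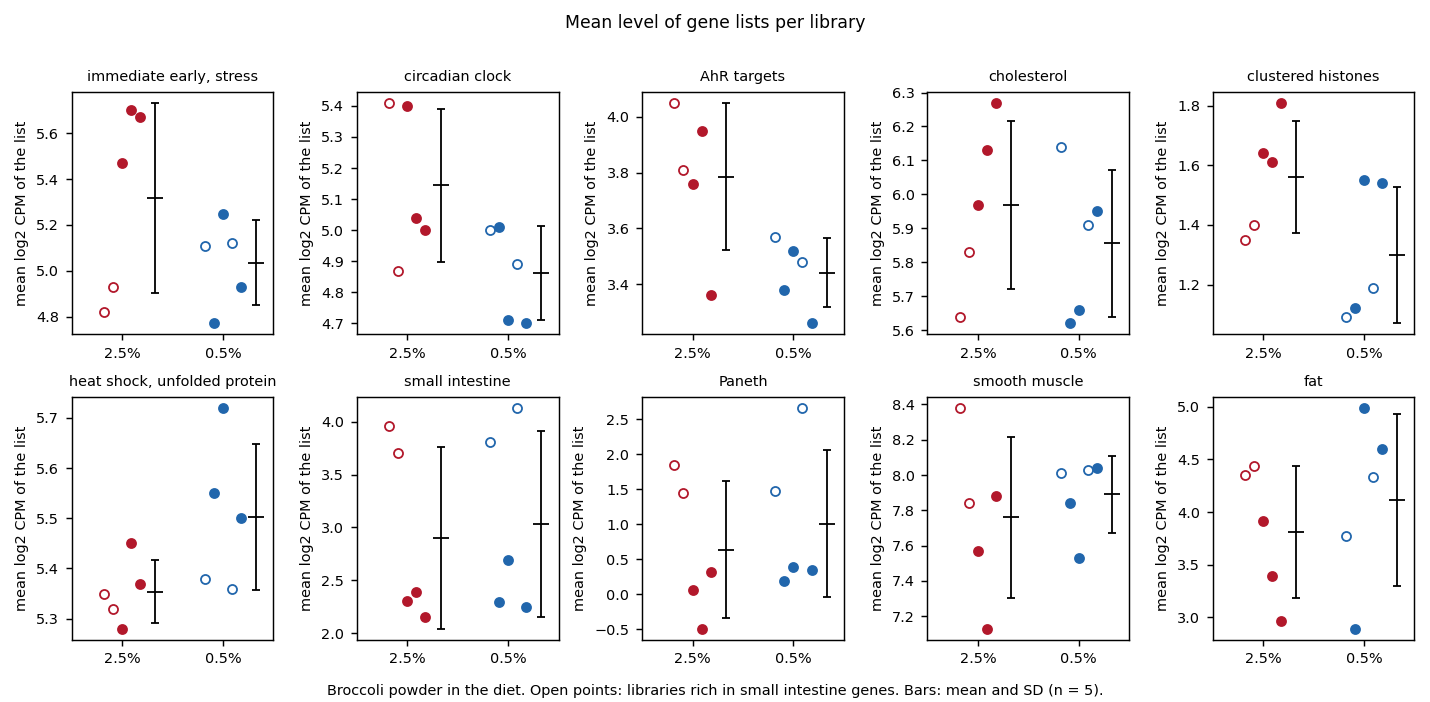
Mean log2 CPM of 10 gene lists (y axis) in each mouse, with 2.5% in red on the left, 0.5% in blue on the right, open points for libraries rich in small intestine genes, and the mean and SD (n = 5) as bars. The 3 filled red points are the highest for immediate early genes, at 5.47 to 5.70, and in no list shown are the groups separated.

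Clustered histone genes, kept as a sign of RNA quality since most of their transcripts lack a poly(A) tail, were positive in 11 of 16 tested members, with a median log2 change of 0.23. At an unadjusted p under 0.05 there were 6 higher and 0 lower members, beside 2.4% and 2.01% of all genes. Besides Hist1h1e these included Hist1h4i, at 3.02, 2.63, 5.01, 4.96 and 5.05 CPM at 2.5% and at 2.45, 2.33, 2.72, 2.46 and 2.94 CPM at 0.5%, and Hist1h1c, at 164, 156, 282, 286 and 283 CPM at 2.5% and at 160.5, 154, 178, 142.5 and 243 CPM at 0.5%. Again replicates 3 to 5 at 2.5% were the highest 3 of the 10 mice in both genes. Of 20 tested p53 targets 11 were positive with a median of 0.020, and Mdm2 alone had an unadjusted p under 0.05.

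Of 27 tested heat shock and unfolded protein genes 5 were positive, with a median log2 change of -0.088. None passed edgeR's adjusted test, and at an unadjusted p under 0.05 there were 0 higher and 3 lower members, beside 2.4% and 2.01% of all genes. The chaperone gene Hspa8 was at 462, 575, 473, 537 and 412 CPM at 2.5% and at 537, 733, 744, 477 and 561 CPM at 0.5%. The groups overlapped widely, with 0.5% replicates 2 and 3 the highest, and the log2 difference was -0.31 (SE 0.139, edgeR adjusted p = 1). Hsph1, its exchange factor, had -0.65 (SE 0.278), and the co-chaperone Dnaja1 had -0.22 (SE 0.087).

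Circadian clock genes were positive in 13 of 18 tested members, with a median log2 change of 0.23 and 6 higher and 0 lower members at an unadjusted p under 0.05, beside 2.4% and 2.01% of all genes. These were Nr1d1 and Nr1d2, repressors of the clock loop, the output factors Hlf and Tef, and the repressors Ciart and Bhlhe41. Dbp, another output factor, was at 38.7, 7.56, 29.4, 11.7 and 9.36 CPM at 2.5% and at 12.8, 15.02, 3.84, 11.2 and 5.64 CPM at 0.5%. Replicates 1 and 3 at 2.5% were the high ones, not replicates 3 to 5, and the log2 difference was 1.00 (SE 0.512, edgeR adjusted p = 1). Arntl, the activator of the loop, was lowest in the same mice, at 43.7, 61.9, 42.2, 65.9 and 68.9 CPM at 2.5% and at 59.8, 55.1, 73.0, 54.3 and 61.6 CPM at 0.5%. Hlf was at 34.2, 16.6, 26.2, 11.1 and 14.5 CPM at 2.5% and at 14.5, 15.9, 7.95, 12.1 and 8.70 CPM at 0.5%, so replicates 1 and 3 were again on top and replicates 4 and 5 were within the range of 0.5%.

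Cholesterol synthesis and uptake genes were positive in 20 of 24 members, with a median log2 change of 0.12. Pmvk of the mevalonate pathway was the 1 higher member at an unadjusted p under 0.05, beside 2.4% of all genes. Sqle, which makes squalene epoxide, was at 54.7, 61.6, 65.5, 71.4 and 83.5 CPM at 2.5% and at 67.1, 45.2, 50.0, 59.3 and 62.0 CPM at 0.5%. The groups overlapped, and without the libraries rich in small intestine genes the list's median was 0.43 with 22 of 24 positive and 0 called. Proliferation genes were positive in 26 of 30 members, with a median of 0.16, and their median was 0.37 in the 3 against 3 libraries. With all libraries, Kif11 and Mcm7 were the 2 higher members at an unadjusted p under 0.05, beside 2.4% of all genes. Mki67 was at 91.6, 162, 193, 204 and 179.6 CPM at 2.5% and at 149.6, 124, 196, 159 and 115 CPM at 0.5%, with 2.5% replicate 1 the lowest of all 10 mice.

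Among fuel use genes, Pdk4, which shuts pyruvate out of mitochondrial oxidation, was at 88.4, 105, 307, 268 and 210.2 CPM at 2.5% and at 85.5, 55.5, 99.9, 72.0 and 102 CPM at 0.5%. All but 1 of the mice on 2.5% exceeded all on 0.5%, replicates 3 to 5 by far, and the log2 difference was 1.24 (SE 0.366, edgeR adjusted p = 0.908). Of 21 tested genes of fatty acid oxidation, ketogenesis and PPAR-alpha, 8 were positive. Only Pdk4 and Plin2 of these had an unadjusted p under 0.05, both as higher, beside 2.4% of all genes. The arrestin-like genes Txnip and Arrdc4, which restrain glucose uptake, had log2 differences of 0.44 (SE 0.124) and 0.61 (SE 0.164) and were called without the libraries rich in small intestine genes (edgeR adjusted p = 0.0204 and 0.00824). Arrdc4 was at 85.7, 95.3, 161, 157 and 168 CPM at 2.5% and at 79.2, 72.5, 90.6, 89.7 and 104 CPM at 0.5%. Cyp24a1, which breaks down active vitamin D, was at 14.2, 29.7, 34.3, 11.5 and 24.0 CPM at 2.5% and at 1.52, 9.04, 12.3, 3.83 and 6.71 CPM at 0.5%. For Cyp24a1 only 2.5% replicate 4 lay within the range of 0.5%, and the log2 difference was 1.76 (SE 0.62, edgeR adjusted p = 1). It was the 1 member of 9 tested bile acid handling genes with an unadjusted p under 0.05.

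Junction genes were positive in 15 of 27 tested members, with a median log2 change of 0.018. At an unadjusted p under 0.05 there were 3 higher and 0 lower members, beside 2.4% and 2.01% of all genes. Cldn4, a claudin of tight junctions, was at 215, 205, 500.0, 604 and 517 CPM at 2.5% and at 285, 158, 260.3, 204 and 205 CPM at 0.5%, which again set replicates 3 to 5 at 2.5% apart. Cldn23 was at 64.4 to 101 CPM at 2.5% and at 50.5 to 68.8 CPM at 0.5%, and the scaffold gene Tjp1 at 151 to 187 CPM at 2.5% and at 138 to 161 CPM at 0.5%. Of 26 tested large bowel transport genes, for ions, water and short-chain fatty acids, 15 were positive, with a median of 0.031 and 0 at an unadjusted p under 0.05. Goblet and mucin genes had 9 of 19 positive and 0 at that level, and stem cell and Wnt genes 7 of 17 and 0. In the 3 against 3 libraries 15 of 19 goblet and mucin genes were positive, with a median of 0.078 and 0 called.

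With all 10 libraries no gene of the immune lists passed edgeR's adjusted test, while DESeq2 called the chemokine gene Cxcl16 (adjusted p = 0.0162). Interferon-stimulated genes were positive in 24 of 31 members with a median log2 change of 0.13. Gbp3 and Ifit2 were the 2 higher members at an unadjusted p under 0.05, beside 2.4% of all genes. In the 3 against 3 libraries, however, 14 of 31 were positive with a median of -0.026. MHC class II genes were positive in 3 of 12 members with a median of -0.073, and tuft cell genes in 4 of 12 with a median of -0.14. In the 3 against 3 libraries these medians were -0.27 for MHC class II and -0.24 for tuft cell genes. Macrophage genes were positive in 12 of 14 members with a median of 0.098, but in 6 of 14 with a median of -0.066 in the 3 against 3 libraries, and the 1 member with an unadjusted p under 0.05 was Spp1, which encodes osteopontin and was lower. Spp1 was at 0.498, 0.347, 0.380, 0.204 and 0.380 CPM at 2.5% and at 0.806, 0.368, 1.23, 0.977 and 0.894 CPM at 0.5%. Only 0.5% replicate 2 was as low as the mice on 2.5%, and the log2 difference was -1.24 (SE 0.302, edgeR adjusted p = 0.415). B and plasma cell genes were positive in 10 of 16 members and T cell genes in 12 of 20, but T cell genes in 6 of 20 in the 3 against 3 libraries. The acute phase gene Saa3 was at 16.2, 13.8, 9.04, 9.97 and 8.11 CPM at 2.5% and at 15.8, 21.3, 11.7, 16.4 and 21.5 CPM at 0.5%, with the low values in 2.5% replicates 3 to 5 (log2 difference -0.60, SE 0.211, edgeR adjusted p = 1).

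Levels on the other diets place the 2 doses among all 4, in order of rising dose from 0% to 0.5%, 1.0% and 2.5%, as means ± SD of 6 mice at 0% and 5 at each other dose. Cyp2c23 was at 1.14 ± 0.149, 1.14 ± 0.374, 1.36 ± 0.381 and 2.51 ± 0.413 CPM, and Crym at 17.7 ± 2.55, 18.5 ± 1.60, 18.6 ± 2.73 and 25.8 ± 3.50 CPM. In both genes the means of the 3 lower doses lay close together and that of 2.5% was higher. Edn3, which encodes endothelin 3, had 27.4 ± 2.88, 35.4 ± 4.80, 32.03 ± 3.94 and 41.0 ± 3.78 CPM, and Ahrr 2.19 ± 0.524, 3.31 ± 0.688, 3.51 ± 0.743 and 4.42 ± 1.06 CPM, so for these genes the mean at 0.5% already lay above that at 0%. Other genes had their lowest mean at 0.5%. Slc30a10 was at 152 ± 30.7, 122 ± 16.8, 194 ± 33.9 and 195 ± 46.9 CPM, and Cyp24a1 at 21.2 ± 13.8, 6.69 ± 4.25, 16.1 ± 11.8 and 22.7 ± 9.78 CPM. The potassium channel subunit Kcne4 was at 7.53 ± 1.59, 3.91 ± 0.180, 6.29 ± 1.37 and 5.89 ± 1.80 CPM. For these, the difference between 2.5% and 0.5% goes with a low level at 0.5%, and 2.5% lay within the SD of 0% in Cyp24a1 and not above 0% in Kcne4. Spp1 was at 1.23 ± 0.337, 0.856 ± 0.316, 1.19 ± 0.159 and 0.362 ± 0.105 CPM. Gm44215, Cyp2d34, Msl3, Aig1, Ikbke and Osbpl10, all lower at 2.5%, had their highest mean at 0.5%, and 2.5% lay within the SD of 0%. Gm44215 was at 0.8777 ± 0.4892, 2.072 ± 0.5065, 0.7536 ± 0.1948 and 0.7445 ± 0.238 CPM, and Aig1 at 69.72 ± 7.743, 78.7 ± 3.948, 68.6 ± 4.197 and 66.3 ± 2.573 CPM. For these, the difference goes with a high level at 0.5%. In Pik3r5, Slc38a7, Edem2 and Spp1 the mean at 2.5% was the lowest and outside the SD of 0%. Of the other genes fixed for naming whatever their p, Arl4d, a small GTPase, was at 10.1 ± 0.695 CPM at 2.5% and 8.98 ± 1.61 CPM at 0.5%, and the zinc finger gene Zfp395 was at 20.9 ± 2.21 CPM at 2.5% and 22.4 ± 1.33 CPM at 0.5%, with edgeR adjusted p values of 1 for both.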

How the data were processed

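Messenger RNA libraries were made from cecum RNA with a strand-marking ligation kit, per the labels' protocols. Raw gene counts of 21 libraries, each matched to a sample by name, were deposited by the authors as 1 table, and the submitters' processing notes name the build mm10. The aligner and the counter, and whether it used strand, are not given in the sources used. Of 25361 gene identifiers 5881 had a count of 0 throughout, and 25268 were named from GENCODE mouse release M21 on GRCm38. Library totals in the compared groups ran from 33132637 to 50757142, and no pair of libraries of 1 diet agreed within sampling noise (lowest chi-square per degree of freedom 17.1).

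Groups follow the treatment label, while replicate numbers follow accession order and do not pair libraries. Libraries were treated as separate mice because the labels give an animal number to each. No cage is named. All 21 libraries, with diet as the only factor, entered 1 robust quasi-likelihood fit in edgeR 4.0.16 (R 4.3.3, limma 3.58.1) with TMM scaling and filterByExpr, which kept 15652 genes. The contrast was 2.5% minus 0.5%, two-sided, with Benjamini-Hochberg adjustment, and an adjusted p under 0.05 counted as a call. CPM values use TMM factors, and list levels are means of log2 CPM with a prior count of 2. Alternatives were DESeq2 1.42.0, limma voom, other scalings and filters, a fit of both doses alone, small intestine or smooth muscle level as a covariate, no libraries rich in small intestine genes (15 of the 21 stay), no animals numbered above 70, and each replicate left out.

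With fewer than 10 genes called in a direction, the 10 lowest p there with at least 1 CPM in a group were named, leaving out predicted genes, pseudogenes and antigen receptor segments, as were 24 fixed genes whatever their p. Other genes were named after their values were seen. Lists, fixed genes and the 4 libraries were chosen with earlier results of these data known, and lists were given no test. Promoter windows came from RefSeq on GRCm38.p6, where 18 of the 24 fixed genes had one.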

Additional observations from a re-analysis of the deposited data

Results flagged for a closer look

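In groups of 5 mice, a library far from the other 4 by Dixon's criterion was found in 7 of 258 groups looked at, where chance gives about 1 in 20, or 13. At 2.5%, Slc30a10 was at 277.8 CPM in replicate 3, with the others between 162.7 and 178.7 CPM. Gclc was at 259.1 CPM in 2.5% replicate 5, with the others between 240.6 and 245.0 CPM. The chemokine and cytokine list had a mean log2 CPM of 1.88 in 2.5% replicate 1, against 2.18 to 2.28 in the others. At 0.5%, replicate 2 stood out for Cxcl16, at 11.51 CPM against 5.874 to 6.945 CPM, and for Pik3r5, at 6.909 CPM against 5.897 to 6.189 CPM. Slc38a7 was at 15.48 CPM in 0.5% replicate 4, with the others between 14.08 and 14.45 CPM. The p53 target list had a mean log2 CPM of 4.88 in 0.5% replicate 3, against 4.68 to 4.73 in the others.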

How the results depend on the processing

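The count of 0 called genes held with RLE scaling, library totals, both other filters, a fit of both doses alone, limma voom, both covariates and without animals numbered above 70. DESeq2 called 18 (17 higher, 1 lower), and edgeR called 44, all higher, without the libraries rich in small intestine genes. Leaving out 1 replicate gave 0 to 14 calls, with 14 without 2.5% replicate 1, 3 without 2.5% replicate 2 and 0 in the other cases, all of them higher. Genes without overlap numbered 43 above and 70 below, and 29 below with library totals. With fewer libraries overlap is rarer by construction, so the next counts cannot be set against these. There were 1222 above and 1169 below without the libraries rich in small intestine genes, and 311 and 443 without animals above 70. Without 1 replicate there were 57 to 159 above and 99 to 192 below. How many genes random division would separate in these settings was not counted. The difference in library totals was -6582676 (2.5% minus 0.5%) and lay between -8616906 and -4692042 without 1 replicate, with an exact permutation p of 0.0159 without 0.5% replicate 1. Of 1867 recomputed values of 89 named genes 0 changed sign, 1812 kept their side of the threshold and 55 passed it. Of the 55, 17 were with DESeq2, 22 without the libraries rich in small intestine genes, 13 without 2.5% replicate 1 and 3 without 2.5% replicate 2. Of 840 recomputed list medians 824 moved by less than the SD of that list's mean log2 CPM among the mice on 0.5%. This SD describes the level of a list and not the spread of its change, so the count does not measure stability. For fat genes, with an SD of 0.814, a move of the median from -0.42 to -1.0 stayed under it. No paired analysis was possible because the replicate numbers follow accession order. With 5 mice a group, small differences in genes of low counts could not be resolved. The labels tie animal numbers to diet in blocks, with 40 to 46 at 2.5% and 18, 20, 26, 76 and 77 at 0.5%. In the compared groups, the animals above 70 were thus 0.5% replicates 4 and 5. What goes with these blocks cannot be told apart from dose.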
